A study of Caenorhabditis elegans with 2 samples.

Results

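Lone protein-coding 5′ ends are places where RNA polymerase II signal lay near an annotated gene start. They lie outside the close spaces between facing starts or between same-strand genes. They were chosen from a chromatin immunoprecipitation sequencing (ChIP-seq) peak list of AMA-1 in Caenorhabditis elegans; AMA-1 is the largest subunit of this polymerase. The starting set was the 5000 regions with the highest signal of 30000 in the list made from both replicates together. Of these, 4326 were on autosomes, 4007 were also over 250 bp from tRNA, snoRNA and snRNA genes, and 1311 had a summit no more than 500 bp from the 5′ end of a protein-coding gene. Leaving out summits between facing 5′ ends 1500 bp or less apart left 1064. Leaving out summits within 100 bp of a gap of up to 500 bp between same-strand genes left 711 regions, which were assigned to 671 genes by the nearest 5′ end. The rule does not keep every neighbour away: 48 of the 711 had more than 1 protein-coding 5′ end within 500 bp. It judges the summit and not the gene. A gene that closely faces, follows or overlaps a neighbour therefore stays in when its summit lies outside these spaces. With a margin of 300 bp around same-strand gaps, 600 regions remained. The rule thus took 711 of the 5000 regions, and the other large classes were 247 divergent promoters, 353 same-strand gaps and 921 protein-coding 3′ ends.

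The material was whole young adult worms, pooled from males and females per the labels, with 2 biological replicates of 1 group and no second condition. The strain, YL489, has the genotype unc-119(ed3) III with the insertion vrIs104, in which the promoter of pie-1, active in the germline, drives AMA-1:GFP:FLAG followed by the 3′UTR of puf-5, with unc-119(+) as rescue. The antibody is labelled ama-1. Nothing says whether it recognised the tag or also the worm's own protein, so signal from germline cells alone and signal from every tissue cannot be told apart. Chromatin was fragmented by sonication, no treatment is named, and the control that the labels mention was not used here.

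RNA polymerase II transcribes all protein-coding genes, and ChIP of its large subunit marks DNA on which it is initiating, paused, elongating or terminating. Most worm genes carry their promoter within a short distance of the transcript's start. Many worm transcripts are trans-spliced: a leader from another RNA replaces the first stretch of the pre-mRNA at a splice acceptor, commonly spelled TTTCAG, so an annotated 5′ end can lie downstream of the promoter.

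Several strong members carried these letters at the annotated 5′ end. For 5 of the members named below the 15 bases before and the 15 bases from the first annotated base are printed in the direction of the gene, with TTTCAG in capitals.
rpl-3: attaatattTTTCAGggtacaacaatgtct
cox-5A: gctcattgtTTTCAGgtaacatggcctcgt
T21B10.3: attcctgatTTTCAGaaaattctcatgctc
rps-28: ttcaatttcTTTCAGgtaatcagtcaccat
swsn-3: tttgaaaatttaataTTTCAGattgaaaaa
In build ce11 (WBcel235) these windows are chrIII:3867839-3867868 for rpl-3, chrIII:12905476-12905505 for cox-5A, chrII:8934367-8934396 for T21B10.3 and chrIV:1659676-1659705 for rps-28, all on the plus strand, and chrIII:2768665-2768694 on the minus strand for swsn-3. In the first 4 the capitals end at the last base before the annotated gene. In swsn-3 they are the first 6 bases of the annotated gene.

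TTTCAG within 10 bp of the annotated 5′ end was found at 230 of the 671 genes, or 34.3% (exact 95% interval 30.7 to 38.0%). The share over all autosomal protein-coding genes was 21.8%. Genes that had only weaker lone regions, ranked below 5000, stood at 31.3% (29.6 to 33.1%), so the intervals of stronger and weaker regions overlapped and both lay above the share over all genes. Counted over regions, 245 of 711 members had the letters at their 5′ end. Their summits had a median position of −30 bp from it and 51.8% were upstream. The 466 members without the letters had a median of +43.5 bp and 44.0% upstream. Counted by side, 38.3% (33.0 to 43.7%) of members with an upstream summit and 31.1% (26.5 to 36.1%) of the others had the letters. These intervals overlapped. Anywhere within 150 bp of the summit, TTTCAG on either strand was in 50.1% of members and 51.6% of windows at eligible positions. Eligible positions are all autosomal positions that meet the same distance rules, and 66795 of them were sampled evenly.

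Of 8 sets of letters searched on both strands of windows reaching 150 bp to each side of the summit, CGCGC differed most, in percentage points, between members and eligible positions. Matches at 6 of the members named below are printed, with CGCGC in capitals on the strand that reads so, to show the surroundings.
rpl-3 summit: aattcaaacaacCGCGCttgtcgtacactt
T21B10.3 summit: gaaaactaccatCGCGCgaacgcgtacgcg
rpl-35 summit: ctttcaaaccgcCGCGCtcatcatacacct
hsp-1 summit: caaaatgtggtgCGCGCtctctctccccct
swsn-3 summit: tgtccagtggggCGCGCttgctcattgtag
mdt-26 summit: aagagggagagtCGCGCgcgcgcgttcagt
They lie at chrIII:3867517-3867546, chrII:8933888-8933917, chrIII:7854639-7854668, chrIV:17278566-17278595, chrIII:2768779-2768808 and chrII:5661141-5661170 in ce11, each on the plus strand. The middle of the match was 27 bp from the summit at rpl-3, 58 bp at T21B10.3, 26 bp at rpl-35, 131 bp at hsp-1, 45 bp at swsn-3 and 95 bp at mdt-26. The mdt-26 window, near the start of a Mediator subunit gene, runs on as an alternating repeat.

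CGCGC on either strand of these windows was present in 173 of 711 members, or 24.3% (21.2 to 27.7%). The same letters were in 10.2% of windows at sampled eligible positions, in 11.6% of windows centred on the 5′ ends of all autosomal protein-coding genes and in 15.7% (14.5 to 16.99%) of the weaker lone regions. The share followed pooled rank, at 34.6% of the 81 members on the optimal list, which holds the strongest pooled regions, 28.4% of the other members down to rank 2500 and 19.9% of those from there to rank 5000. Below the threshold it was 17.4% down to rank 10000, 14.7% from there to 20000 and 15.9% from there to 30000. When the rule was applied to each replicate list alone, 21.3% of 680 regions in replicate 1 and 22.7% of 715 in replicate 2 held the letters, so both replicates gave shares above that of eligible positions.

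The longer letters CTGCGTC were rarer and also commoner in members. They were in 57 members, or 8.02% (6.13 to 10.26%), against 2.92% of eligible windows, 3.58% of windows at all 5′ ends and 4.43% (3.77 to 5.16%) of weaker lone regions. Each replicate alone gave 6.62% and 7.41%. In 40 of the 57 members, or 70.2%, the match ran on to CTGCGTCTC. Of the windows with CTGCGTC, this held for 63.2% in weaker lone regions, 63.4% at all 5′ ends and 56.8% at eligible positions. CTGCGTCTC was in 5.63% (4.05 to 7.58%) of members and 1.66% of eligible windows. Of the 57, 21 also held CGCGC, which was in 173 of all 711 members. Matches at 4 members are printed, with CTGCGTC in capitals, so that the following bases can be compared.
mdt-26 summit: ggtttcaatggCTGCGTCtgctcaaaatgt
vps-60 summit: gaaatgtgtgtCTGCGTCtcgtttatttct
micu-1 summit: tttgcattgcgCTGCGTCtcctcggtttac
plrg-1 summit: agaaaatgtctCTGCGTCtccacagggggc
They lie at chrII:5661244-5661273 (plus), chrV:8606411-8606440 (plus), chrIV:13297888-13297917 (minus) and chrV:10808205-10808234 (plus). The genes encode a Mediator subunit, an ESCRT-III-related protein, a regulator of mitochondrial calcium uptake and a splicing factor, in that order. The mdt-26 match lay 8 bp from its summit, and the other 3 lay 63 to 96 bp away.

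Both sets of letters were commoner on the upstream side of the gene. CGCGC was in 33.4% (28.4 to 38.8%) of the 332 members with an upstream summit and in 16.4% (12.8 to 20.5%) of the 379 others, while the eligible windows on these sides stood at 11.8% and 9.07%. CTGCGTC was in 11.4% (8.23 to 15.4%) of upstream and 5.01% (3.05 to 7.72%) of the other members, against 3.82% and 2.32% of eligible windows. A match is a description of letters and not a site of binding.

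A count of all 6-letter words, without a chosen motif, was made on the same windows and is no separate evidence for the letters above. Of 2065 words present in at least 2% of eligible windows, each counted with its reverse complement, the 20 with the highest ratio of members to eligible windows all held CG. The first was AGCGCG, in 10.1% of members, 5.91% of weaker lone regions and 3.38% of eligible windows, a ratio of 2.996. Words overlap one another and CGCGC, so they are not 20 separate findings. The GC content of the windows moved with these letters: its median was 36.9% in members (quartiles 33.2 and 41.2%), 36.2% in weaker lone regions and 35.5% at eligible positions, and its part in the shares was not tested. Divergent promoters stood at 36.5%, same-strand gaps at 33.6% and 3′ ends at 34.6%. Of the other letters, GAGAGA was in 25.7% of members and 15.9% of eligible windows, CACGTG in 8.30% and 5.48%, CCGCCC in 7.31% and 5.19%, TATAAA in 28.1% and 31.5%, and TTTTTT in 76.2% and 73.7%.

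The pooled signal chose the members, so their levels are given as a description. This is the authors' own value per region, on a scale that the files do not define, and it is used here only to rank regions within a list. It ran from 19.8 to 105.8 with a median of 24.6, and the pooled rank ran from 68 to 4997 with a median of 2824. The last 3 regions inside the threshold were at wts-1, a Warts-family kinase, pde-2, a phosphodiesterase, and nxf-1, an mRNA export factor, at pooled signals of 19.83, 19.82 and 19.80. The next 3 outside it were at unc-23, C30F12.3 and F28G4.4, at 19.80, 19.78 and 19.78. Nearly all members (707) had the same listed width of 280 bp centred on the summit, so width carries no information on how far polymerase extended.

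rpl-3, which encodes a protein of the large ribosomal subunit, had the highest pooled signal of the members at 105.8 (rank 68). It ranked 153 in replicate 1 with a signal of 34.9 and 172 in replicate 2 with a signal of 47.97. Its summit lay 296 bp upstream of the annotated 5′ end, between genes. cox-5A, a subunit of cytochrome c oxidase, followed at 87.9, with ranks of 65 and 249 and signals of 47.2 and 42.3, and its summit at −292 bp. T21B10.3 had 76.6, ranks of 110 and 90, signals of 38.5 and 59.4, and its summit at −422 bp. These 3 regions were thus among the 250 strongest of each replicate list, and each lay over 250 bp upstream of a 5′ end with TTTCAG directly before it, as printed above. Of the other top 20 members by pooled signal that lay so far upstream, rps-28 and T28B8.1 had the letters within 10 bp of the 5′ end. rpl-35, pie-1, vig-1 and ncs-2 did not. The letters stood there at 35.8% of optimal members, 33.6% of the next down to rank 2500 and 34.7% from there to rank 5000.

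rpl-35, another large-subunit gene, did not repeat as closely: its pooled signal of 72.0 went with rank 2017 in replicate 1, at 14.5, and rank 100 in replicate 2, at 58.0. tba-7, an alpha-tubulin gene, was similar, with a pooled signal of 65.5 and ranks of 2175 and 115, and its summit was 320 bp inside the gene. rps-28, a small-subunit gene, went the other way, with ranks of 91 and 17568 and signals of 41.4 and 6.48, and still reached 54.96 in the pooled list. Y69A2AR.31 ranked 6102 and 215. In each of these 4 genes the replicate ranks differed more than 10 times.

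hsp-1, the constitutively expressed Hsp70 chaperone, had a pooled signal of 65.4, with ranks of 332 and 597 at signals of 26.9 and 28.7, and its summit at −248 bp. swsn-3, a subunit of the SWI/SNF chromatin-remodelling complex, had 64.1, with ranks of 223 and 510 at 31.3 and 30.5; its summit at −159 bp lay in an intron of another gene. T28F4.5 had 67.2 with ranks of 147 and 731, and C56C10.7 had 57.4 with ranks of 222 and 408. kin-14, at 42.6 with ranks of 550 and 270, and T26A8.4, at 49.7 with ranks of 252 and 755, had lower pooled signals and were also among the 10 members with the best worse rank. These genes stood high in both lists.

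pie-1, which encodes a zinc-finger protein that represses transcription in germline precursors, had a pooled signal of 59.3, with ranks of 124 and 155 and signals of 36.8 and 49.3. By the worse of its ranks it came after T21B10.3 and before rpl-3 among all members. Its summit lay 489 bp upstream of the gene, and the transgene carries the promoter of this gene to an extent that the labels do not state. Signal from the chromosomal gene and from the insertion cannot be told apart. Of the 4 genes with sequence in the transgene, pie-1 alone had a member (25%, 0.631 to 80.6%), where the share over all autosomal protein-coding genes was 3.89%. Members are regions near 5′ ends only, so the count does not describe signal elsewhere in the other genes. The other members in the 20 with the highest pooled signal were at F25H9.7, K09F6.11, mdt-26, tag-30, ncs-2, C04F12.5, T28B8.1 and vig-1, with pooled signals from 52.2 to 58.3. The authors' optimal list is the same set of regions as the strongest of the pooled list, so it holds all 20 by their pooled rank. Of the 20 summits, 10 lay between protein-coding genes.

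**Figure D1:**
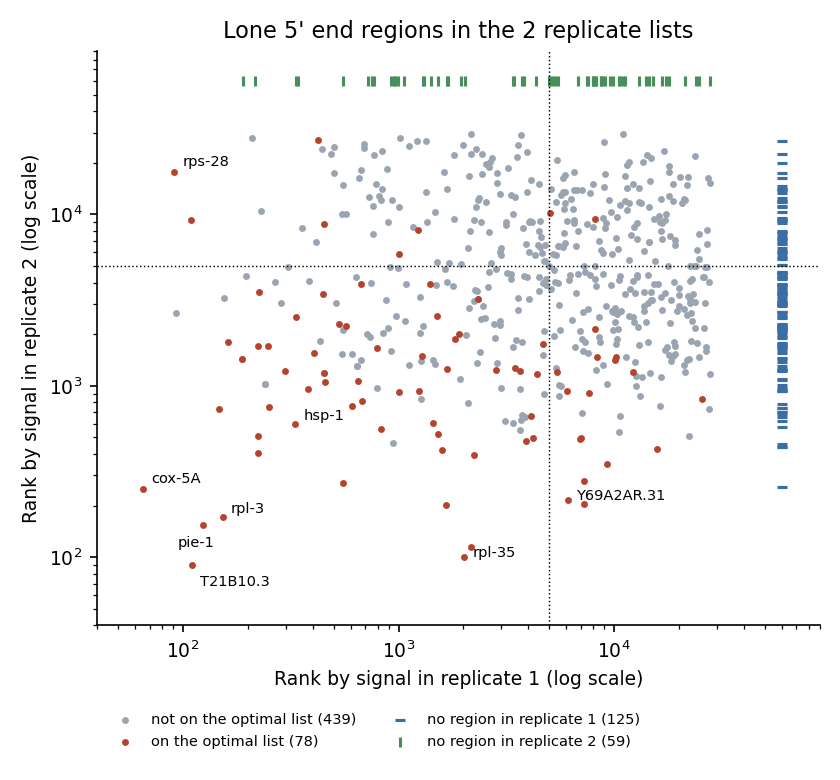
Each point is a member, with its rank by signal among all regions of replicate 1 on the x axis and of replicate 2 on the y axis, both on log scales, where rank 1 is the strongest and dotted lines mark rank 5000. Red points are on the optimal list, and marks at the right and top edges are members with no candidate region in replicate 1 (125, with a region in replicate 2) or in replicate 2 (59, with a region in replicate 1); rpl-3, cox-5A, T21B10.3 and pie-1 sit at the lower left, and rps-28 far above the diagonal.

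Support in the 2 replicate lists, which come from the same reads as the pooled list, was uneven. A candidate region overlapped 576 members (81.0%) in replicate 1 and 642 (90.3%) in replicate 2. Both replicates had one at 517 members, or 72.7% (69.3 to 76.0%), where the background over all 5000 regions was 73.2%. Candidate lists are long and lenient, so the strongest parts of each list are the harder requirement. Only 148 members, or 20.8% (17.9 to 24.0%), overlapped one of the 5000 strongest regions of both replicates, called strong in both below, against 25.4% of all 5000. The background includes small RNA gene regions, which the rule leaves out and of which 64.8% were strong in both. Over the 4007 autosomal regions away from small RNA genes, 20.8% (19.5 to 22.1%) were strong in both and 72.0% had a candidate region in both, about the same as the members. The optimal list held 81 members, or 11.4% (9.15 to 13.96%), against 17.7% of all 5000 and 11.9% of the 4007; since this list follows pooled rank, the share describes the signal that chose the members and is no evidence from the replicates.

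By comparison, same-strand gaps had 77.3% in both replicates, 26.9% in the strongest of both and 22.1% on the optimal list. For 3′ ends these shares were 78.7%, 28.2% and 17.2%, and for divergent promoters 68.8%, 19.4% and 16.6%. These intervals cover counting error only, and regions of 1 list are not replicates of a condition.

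Among the 517 members present in both replicates, 250 ranked better in replicate 1 and 267 in replicate 2, so within this set the better ranks were divided about evenly. Over all 711 members more were among the 5000 strongest of replicate 2 (54.3%, 50.5 to 58.0%) than of replicate 1 (39.5%, 35.9 to 43.2%). The ranks differed more than 10 times at 95 members, with 52 better in replicate 1 and 43 better in replicate 2. Applying the rule to replicate 1 alone gave 651 genes, of which 258 were among the 671; replicate 2 alone gave 685 genes, of which 352 were. These are 38.5% and 52.5% of the 671 genes. The replicate lists shared 147 genes, and 126 of these were among the 671.

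Relative to the assigned 5′ end the summits were spread over the whole window, from −497 to +495 bp, with a median of +25 bp and quartiles of −242 and +235 bp. They were upstream at 332 members, or 46.7% (42.98 to 50.4%), against 39.9% of eligible positions and 39.3% (37.7 to 40.9%) of weaker lone regions. Replicate 1 alone gave 46.03% and replicate 2 alone 42.1% (38.4 to 45.8%), so the interval of replicate 2 included the share of eligible positions. With same-strand gaps of up to 1000 bp also left out, the median position was +100 bp and 40.9% (36.9 to 44.9%) of 609 regions were upstream, against 36.3% of the positions then eligible. Within 100 bp of the 5′ end there were 127 summits, or 17.9%, close to the 17.4% of eligible positions. Per megabase of eligible positions the summits were densest from −200 to −100 bp, at 78.8, and sparsest from +400 to +500 bp, at 34.9.

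In the members on the optimal list summits were upstream at 45 of 81, or 55.6%, with an interval (44.1 to 66.6%) that overlapped that of the other members (45.6%, 41.6 to 49.5%). The share did not follow rank steadily, at 42.2% of the next members down to rank 2500 and 47.5% from there to rank 5000. Optimal summits lay more than 250 bp upstream at 28, or 34.6% (24.3 to 45.96%), against 21.4% of eligible positions and 24.1% of all members. Only 2 optimal summits lay in the 100 bp before the 5′ end, and 43 lay from −500 to −100 bp. The 3 members furthest upstream were at let-413, a cell-polarity gene of the Scribble family, dus-2 and K07C11.8, at −497, −495 and −495 bp. The 3 furthest downstream were at C13A10.2, maco-1, the worm macoilin gene, and F54F2.6, at +495, +490 and +489 bp. The nearest to the 5′ end were H10E21.4, F29B9.5 and upp-1, a uridine phosphorylase gene, each at +2 bp, ced-12, which acts in engulfment of dying cells, at +3 bp, and him-17, which acts in meiotic recombination, at +4 bp.

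**Figure D2:**
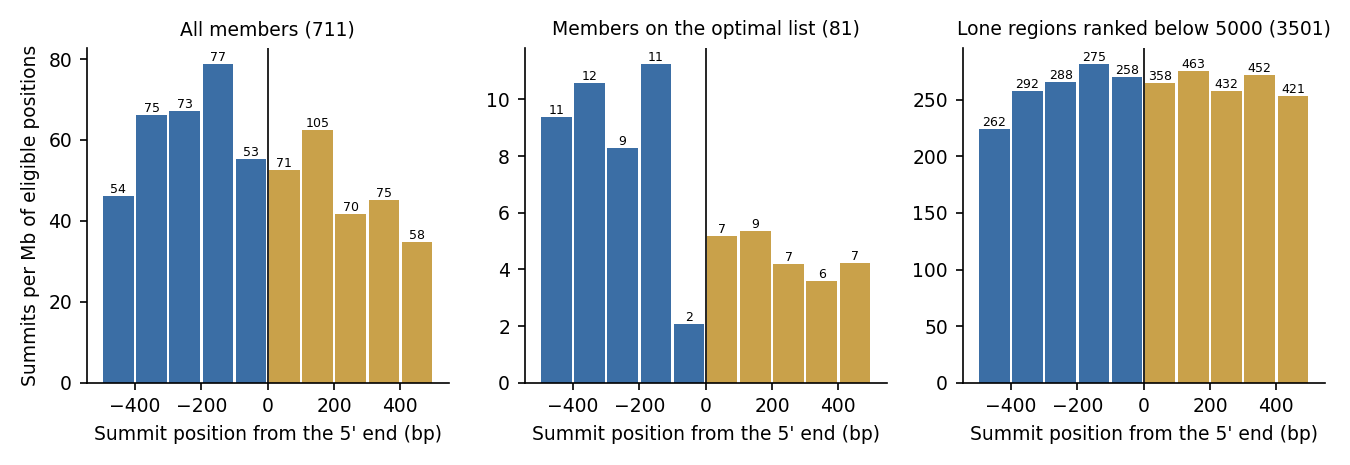
Bars give summits per megabase of eligible positions in 100 bp bins from the assigned 5′ end (negative values upstream, blue; downstream, gold), with the number of summits above each bar, for all 711 members, the 81 on the optimal list and the 3501 lone regions ranked below 5000. The y axes differ; optimal summits number 2 in the bin just before the 5′ end, and the weaker regions are spread nearly evenly.

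By annotation, 259 members (36.4%) had the summit between protein-coding genes, 174 (24.5%) in an intron, 177 (24.9%) in a coding exon and the remaining 14.2% in an untranslated exon. Eligible positions were divided as 32.8%, 26.3%, 33.0% and 7.98%. Untranslated exons thus held a larger share of members (11.7 to 16.99%) than of eligible positions, and coding exons a smaller one (21.8 to 28.2%). The weaker lone regions had 11.8% in untranslated exons and 28.8% in coding exons, between these values.

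The rule removed summits at narrow same-strand gaps, each of which starts at a 3′ end, and used no other 3′ ends. Eligible positions were reduced in the same way. A protein-coding 3′ end lay within 500 bp of 284 summits, or 39.9% (36.3 to 43.6%), against 21.9% of eligible positions and 27.4% (25.9 to 28.9%) of weaker lone regions. Replicates 1 and 2 alone gave 37.4% and 38.2%. With same-strand gaps of up to 1000 bp also left out the share was 34.5% (30.7 to 38.4%), against 19.4% of the positions then eligible. It was another gene's 3′ end only at 227 of the 284 and the assigned gene's own at 57. At such members, signal from a gene's start and signal from the end of its neighbour cannot be told apart. An example is rpl-3, whose summit was 460 bp from the 3′ end of a neighbour and is also the strongest region within 500 bp of the end of acs-19.

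**Figure D3:**
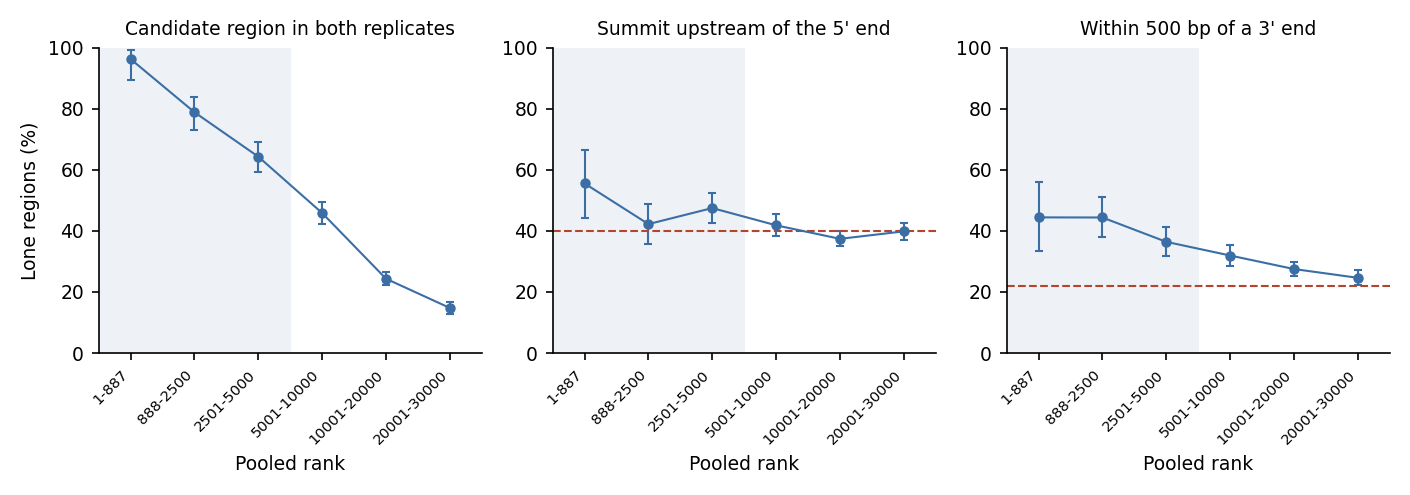
The y axes give the percentage of lone 5′ end regions, with exact 95% intervals, that had a candidate region in both replicates, a summit upstream of the 5′ end, or a 3′ end within 500 bp, in 6 bins of pooled rank on the x axis; the shaded bins hold the 711 members and red dashed lines give eligible positions. Presence in both replicates falls from 96.3% in the first bin to 14.8% in the last, and nearness to a 3′ end from 44.4% to 24.6%.

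Genes with a member at the start often had another of the 5000 regions at their own end. Such a region lay within 500 bp of the 3′ end in 227 of 671 genes, or 33.8% (30.3 to 37.5%), where the share over all autosomal protein-coding genes was 10.9%. Among genes longer than 1000 bp, where the ends are further apart, it was 192 of 552, or 34.8% (30.8 to 38.9%), against 10.5% of the other genes of that length and 22.8% (21.2 to 24.6%) of genes with only weaker lone regions. In replicate 1 alone the share was 26.6%, and in replicate 2 alone 32.7%.

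The stronger end differed between genes. At hsp-1 the 5′ region ranked 218 and the 3′ region 44, with pooled signals of 65.4 and 129.0. At ubq-1, the polyubiquitin gene, the ranks were 867 and 72, and at lpin-1, a lipin phosphatase gene, 717 and 317. At rpl-3, cox-5A and pie-1 the 5′ region was the stronger, with ranks of 68, 103 and 294 at the start and 977, 883 and 804 at the end. The region at the end of pie-1 is itself the member assigned to snr-6, a gene for a core spliceosomal Sm protein, 433 bp inside that gene. The region at the end of hsp-1 is also the one within 500 bp of the end of nra-1, so 1 region can stand at the ends of 2 genes.

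Ribosomal protein genes of both subunits had the highest shares among the lists of over 4 genes. Members were assigned to 18 of 79 autosomal ribosomal protein genes, or 22.8% (14.1 to 33.6%), where the share over all autosomal protein-coding genes was 3.89%. They were 12 of 48 genes of the large subunit, or 25% (13.6 to 39.6%), and 6 of 31 of the small subunit, or 19.4% (7.45 to 37.5%). At the strongest member of each gene, the summit was upstream in 12 of the 18, against 312 of all 671 genes with a member. In 11 it was 200 bp or more upstream, and the median position was −301 bp, against +25 bp over all 711 members. Weaker second members lay at −129 bp at rpl-41.2 and at +95 bp at rps-21, each across the 5′ end from the strongest. In 11 of the 18 TTTCAG stood at the annotated 5′ end, against 230 of the 671. Of the 18, 7 were among the strongest 5000 of both replicates, against 137 of the 671. The count depended on the rule: a window of 250 bp left 7 genes, and leaving out same-strand gaps of up to 1000 bp left 9 of 79, or 11.4% (5.34 to 20.5%), against 3.38% of all autosomal protein-coding genes.

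Within the large subunit, rpl-3 and rpl-35 led, followed by rla-1, which encodes a protein of the ribosomal stalk, at 46.1 with ranks of 1597 and 421 and a summit at +475 bp. rla-1 is 490 bp long, so that summit lay near its far end. The nearest protein-coding 3′ end, 2 bp away, was that of another gene. In all, 2 of the 18 genes had the summit nearer to their own 3′ end than to the 5′ end. In the small subunit rps-28 led, followed by rps-25 at 47.6, with ranks of 1402 and 3929 and a summit at −430 bp, and rps-21 at 34.6, with no region in replicate 1 and rank 625 in replicate 2. The weaker second member of rps-21, at 30.3, ranked 14963 and 3156. Of the 18 genes, 4 had no candidate region in replicate 1 at their strongest member and none lacked one in replicate 2. The rule on replicate 1 alone assigned 14 ribosomal protein genes and on replicate 2 alone 19, and 7 were in both.

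The respiratory chain and ATP synthase list had 8 of 47 genes, or 17.02% (7.65 to 30.8%). cox-5A was followed by cox-5B, another cytochrome c oxidase subunit gene, at 44.9 with ranks of 299 and 1218 and its summit at +9 bp, and by atp-1, the ATP synthase alpha subunit, at 34.6 with ranks of 3846 and 659. Of the 8, 3 were among the strongest 5000 of both replicates and 3 were upstream. Of the 70 mitochondrial ribosomal protein genes 5 had a member (7.14%, 2.36 to 15.9%), led by mrps-26 at 27.6, and none of them was strong in both replicates. This interval overlapped that of the respiratory chain list and included the 3.89% over all autosomal protein-coding genes.

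Nuclear pore and transport genes had 6 of 40 (15%, 5.71 to 29.8%), led by npp-7, a nucleoporin gene, at 38.0 with no region in replicate 1 and rank 577 in replicate 2, and by ran-1, the Ran GTPase, at 27.8 with ranks of 4281 and 5816. Actins and actin regulators had 5 of 28 (17.9%, 6.06 to 36.9%), led by act-2 at 35.7 with ranks of 22321 and 1442 and by arx-7, an Arp2/3 subunit gene, at 31.1 with rank 968 in replicate 1 and no region in replicate 2. act-2 and act-3 are near-identical copies in 1 cluster, and the placing of reads that match several copies is not described, so their values are uncertain.

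RNA polymerase and general transcription genes had 7 of 73 (9.59%, 3.94 to 18.8%), led by mdt-26 at 56.8 with ranks of 1658 and 202, rpc-25, an RNA polymerase III subunit gene, at 39.8 with ranks of 572 and 2235, and taf-10, a TFIID subunit gene, at 24.2 with ranks of 2793 and 1910. Chaperones had 5 of 48, led by hsp-1, dnj-5 at 37.5 and hsp-110 at 27.6. Ubiquitin genes had 6 of 63, led by ubq-1 at 38.0 with no region in replicate 1 and rank 455 in replicate 2. Vesicle transport genes had 8 of 109, led by chc-1, the clathrin heavy chain, at 49.5 with ranks of 10177 and 1480, and vha-13, a proton pump subunit gene, at 41.9 with ranks of 3922 and 476.

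Translation factors had 4 of 39, led by ife-3, an eIF4E gene, at 35, and spliceosome genes had 5 of 66, led by snr-6 at 39.1. snr-6 ranked 15901 and 425 in the replicates. It is 458 bp long with its summit at +433 bp, so near its far end. The nearest protein-coding 3′ end, 1 bp away, was that of pie-1 and not its own. The intervals of the chaperone, ubiquitin, vesicle, translation factor and spliceosome lists included 3.89%. Proteasome genes had 2 of 33, histones 2 of 76 and tubulins 2 of 12, of which tba-7 was described above. The leading histone gene, his-61, belongs to a repeated family and is uncertain for the same reason as the actins. his-61 is 384 bp long and its summit lay at +437 bp, so past its own 3′ end, which was 54 bp away. None of the 32 aminoacyl-tRNA synthetase genes had a member, which allows a share of up to 10.9%, although 12 had a weaker lone region.

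Germline lists were mixed. The P granule and small RNA pathway list had 6 of 41 genes (14.6%, 5.57 to 29.2%), and none of them was strong in both replicates. Its leading gene, henn-1, which methylates small RNAs, had a pooled signal of 35.5 with rank 217 in replicate 1 and no region in replicate 2. ego-1, an RNA-dependent RNA polymerase gene, had 30.7 with no region in replicate 1 and rank 1236 in replicate 2, and pgl-2, a P granule gene, had 27.5 with none and rank 2168. Each of these 3 thus rested on a single replicate.

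Chromatin regulators had 6 of 48 (12.5%, 4.73 to 25.2%), led by mep-1 at 29.9 with ranks of 733 and 12603, lin-35, the worm Rb gene, at 29.1 with no region in replicate 1 and rank 970 in replicate 2, and hpl-2, an HP1 gene, at 22.9. The oogenesis list had 4 of 48, namely pie-1, cpg-1, which encodes an eggshell proteoglycan, at 38.3 with ranks of 2333 and 3219, oma-2, an oocyte maturation gene, at 22.8 with ranks of 2103 and 6379, and 1 weaker gene. The meiosis list had 2 of 45, him-17 at 41.2 with ranks of 8171 and 2154 and brc-1, the BRCA1 gene, at 40.05 with ranks of 1449 and 610. The mitosis list had 2 of 63.

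None of the 94 sperm genes had a member, which allows a share of up to 3.85%, just below the share over all genes. Intestine and yolk genes had none of 34, allowing up to 10.28%, inducible heat shock genes none of 13 and dosage compensation genes none of 8. Chemoreceptor genes, a large family used by small numbers of neurons, had 4 of 1276, or 0.314% (0.0855 to 0.801%). The strongest of these, sri-18, ranked 792 and 971 in the replicates with a pooled signal of 35.5, so its region stood in the upper part of both lists. That summit lay 305 bp upstream of sri-18 and nearer, at 266 bp, to the 3′ end of another gene. Nuclear hormone receptors had 4 of 247 (1.62%, 0.443 to 4.09%), led by nhr-49, a regulator of lipid metabolism, at 35.1 with ranks of 284 and 3052.

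Cuticle collagens had 2 of 149 (1.34%, 0.163 to 4.76%), led by col-140 at 34.5. Neuropeptide and insulin genes had 4 of 108, led by nlp-32 at 31.4, homeobox genes 2 of 66 and heterotrimeric G protein genes 1 of 29. Synaptic and neuronal genes had 5 of 50 (exact interval 3.33 to 21.8%), led by rgef-1 at 31.2 with ranks of 24716 and 1464 and unc-116, the kinesin heavy chain, at 28.4. Muscle genes had 3 of 35, led by unc-60, a cofilin gene, at 29.2 with ranks of 893 and 8972. Of the 34 lists, the interval lay above 3.89% for 8 and below it for 2, which were the sperm and chemoreceptor lists. Lists share genes in places and were not tested.

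**Figure D4:**
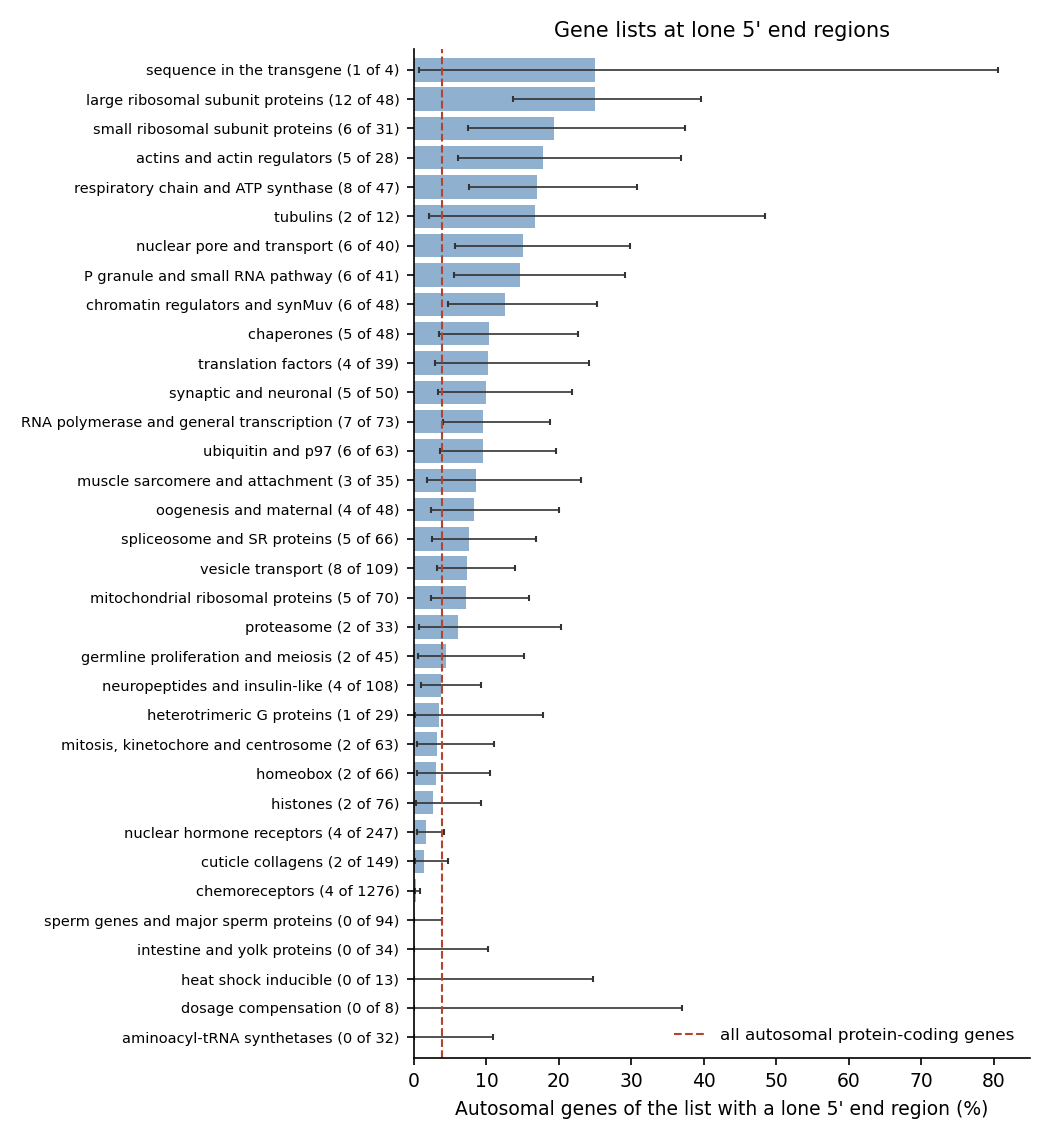
Bars give the percentage of autosomal genes of each list that had a member, with exact 95% intervals and the counts beside each name, and the red dashed line marks all autosomal protein-coding genes (3.89%). The 8 lists whose interval lies above the line include both ribosomal subunits, the respiratory chain, actins, nuclear pore, P granule, chromatin and RNA polymerase genes; 5 lists have no gene with a member.

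The members were unevenly spread over the autosomes. Chromosome III had 182 members, or 91.5 per megabase of eligible positions, and chromosome V had 131, or 33.2. The values were 72.2 for I, 49.7 for II and 41.9 for IV. Counted over genes, 171 of 2640 genes on III (6.48%, 5.57 to 7.48%) and 123 of 4994 on V (2.46%, 2.05 to 2.93%) had a member. Chromosome III held 25.6% of members and 14.9% of eligible positions. In the rule on replicate 1 alone it held 136 of 680 regions (17.1 to 23.2%), and on replicate 2 alone 171 of 715 (20.8 to 27.2%), both above its share of eligible positions. The central of 3 equal lengths of each autosome had, together, 71.5 members per megabase of eligible positions and the outer parts 42.5.

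**Figure D5:**
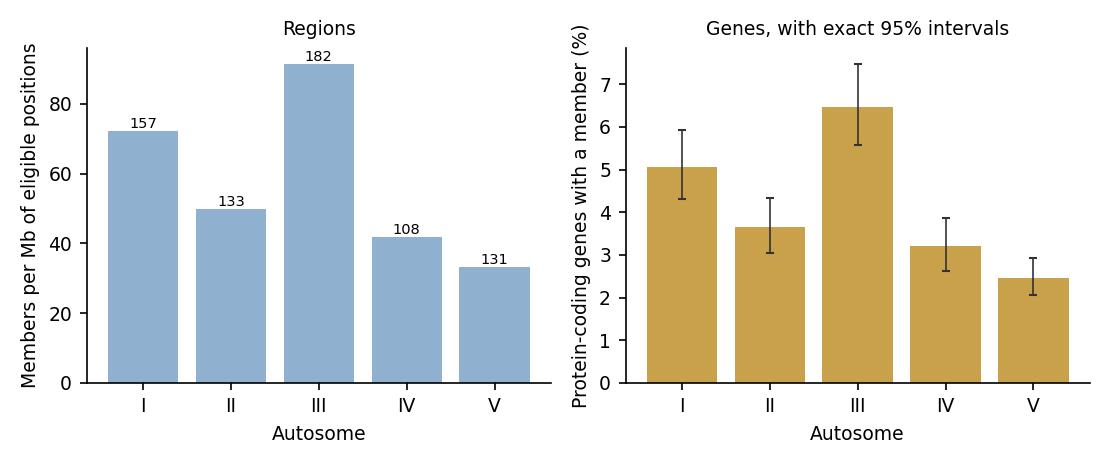
The left bars give members per megabase of eligible positions on each autosome, with the number of members above, and the right bars the percentage of protein-coding genes with a member, with exact 95% intervals. Chromosome III is highest (91.5 per megabase and 6.48% of genes) and V lowest (33.2 and 2.46%).

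Members near other annotated RNA genes were few. An ncRNA gene lay within 250 bp of 37 summits (5.204%, 3.69 to 7.10%), against 3.07% of eligible positions, a piRNA gene at 11 (1.55%, 0.775 to 2.75%) against 2.94%, and a pseudogene at 4 (0.563%) against 1.69%. A miRNA gene lay near none, which allows up to 0.517%, where the share of eligible positions was only 0.0928%.

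Most genes had a single member: 36 had 2 and 2 had 3. tos-1 had summits at −398, +14 and +488 bp, with pooled ranks of 3700, 1073 and 1194. Its ranks in replicate 1 were 737, 608 and 434, and in replicate 2 they were 1922, 1532 and 1819, so all 3 stood in the strongest 5000 of both lists while none was on the optimal list. F54F2.6 had summits at −283, +247 and +489 bp, with pooled ranks of 2841, 4142 and 3767. Only 12 members overlapped another, and merging them left 705 stretches. Genes with members had a median length of 2351 bp, against 1964 bp over all autosomal protein-coding genes.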

How the data were processed

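AMA-1 was assayed by ChIP-seq in 2 biological replicates of 1 group, and the authors deposited peak lists in build ce11, 1 per replicate, 1 for the pooled reads and 1 of optimal peaks past an irreproducible discovery rate threshold, per the file names. The deposited signal value per region (column 7) ranked regions within each list of 28020, 30000 and 30000 regions, and the optimal list is the strongest part of the pooled one. No source used here gives the aligner, peak caller, settings or threshold, and the ce10 lists were not used. No read counts were given, so depth is unknown.

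Summits were placed on the Ensembl release 115 annotation of WBcel235 with Python 3.11.15, numpy 2.4.6, pandas 2.3.3 and scipy 1.17.1, and checked on simulated data; figures used matplotlib 3.10.9. Regions matched when they shared at least 1 bp. Intervals are exact Clopper-Pearson 95% intervals, cover counting error only, and no test was made. The members and gene lists were chosen with earlier results of these data known. Named genes were those at the 20 highest pooled signals and the 10 best worse-of-both replicate ranks, up to 3 per list, and those at the limits of the rule; genes named for their letters, a 3′ end region or several members were chosen after their values were seen. Alternatives varied the window, the number of regions, the gap and neighbour rules, the transcripts, the overlap and the replicate used.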

Additional observations from a re-analysis of the deposited data

How the results depend on the processing

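Of 127 alternative values, 96 stayed within 1.5 times the reported count or within the reported interval, and 31 moved; the causes were not tested beyond the changed sets themselves. A window of 250 bp gave 372 regions, 370 genes, 7 ribosomal protein genes and TTTCAG at 30.7% of regions; 1000 bp gave 1276, 1109 and 28, and a median position of +91.5 bp. The 2500 strongest regions gave 313 regions and 303 genes, with 25.9% optimal, 83.4% in both replicates, 36.1% strong in both and 25.7% of genes with a 3′ end region. The 10000 strongest gave 1459 and 1337, with 5.55%, 58.9%, 11.4% and 44.4%. Leaving out same-strand gaps of up to 1000 bp moved the median to +100 bp, the upstream share to 40.9% and ribosomal protein genes to 9. Using the 5′ ends of all transcripts gave TTTCAG at 29.9%. Leaving out each replicate gave upstream shares of 42.1 to 46.03%, TTTCAG at 29.1 to 34.0% and 3′ end regions at 26.6 to 32.7% of genes. Requiring summits within 100 bp gave 45.3% in both replicates and 12.2% strong in both, and taking from each replicate only as many regions as the optimal list holds gave 1.83% strong in both. Windows of 50 bp to each side of the summit gave a median GC content of 38.6%. Merging overlapping members was chosen after seeing the data. Shares over both replicates could not be computed without a replicate. No paired analysis was possible because there is 1 group. Depth is unknown, so no limit from reads can be given.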
